A study of Mus musculus with 6 samples.

Results

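The genes described here encode the machinery that copies DNA and the enzymes that supply its building blocks. They are 45 named genes, and each was found as 1 row of the 39179 rows of the deposited gene table. All 45 were among the 17021 genes that the authors tested. The cells, B16F10.9, are melanin-making melanoma cells grown as a line from the C57BL/6 strain. RNA was sequenced from 6 libraries, 3 of untreated cells (agent given as none) and 3 of cells kept for 24 h with recombinant mouse interferon-gamma (IFN-gamma) at a labelled 50 µg/ml, a unit printed as the labels give it and possibly an error for a smaller one. A heading line of the table speaks of infection, but its columns name B16 and IFN, and the columns were followed. Both groups were seeded in triplicate from the same line, and the labels name no other agent or genetic change, so the comparison asks how the genes differ between cells with and without the cytokine.

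Each level is given in FPKM, fragments scaled by transcript length and by library size, so that levels can be set against each other between genes. The authors reduced the 3 libraries of a group to 1 value. No value per library was used, and therefore no SD or n stands beside any level, and the depth of the libraries is unknown. Rises and falls are calls at a q-value under 0.05 in the authors' deposited table. The triplicates were seeded from the same line, and nothing in the labels tells whether they stand for separate experiments. The p-values then measure a spread that may be technical. The melanocyte markers Tyr, Tyrp1, Dct, Pmel, Mlana, Mitf and Sox10 stood between 78.7 and 4045 FPKM in both groups. All 9 markers of leukocytes, endothelium, epithelium and fibroblasts found in the table stood at 0.197 FPKM or less, with summed levels of 0.647 FPKM untreated and 0.317 FPKM after IFN-gamma. The interferon target Irf1 stood at 10.2 FPKM untreated and 482 FPKM after IFN-gamma.

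DNA replication begins in G1 phase, when the origin recognition complex (ORC) together with Cdc6 and Cdt1 places the ring-shaped Mcm2-7 helicase on DNA. In S phase Cdc45 and the GINS complex turn the ring into an active helicase, and DNA polymerases alpha, delta and epsilon copy the strands behind it. Polymerases delta and epsilon are held by the sliding clamp Pcna. Deoxynucleotides come from ribonucleotide reductase and from the thymidylate enzymes. Many of these genes are known targets of E2F transcription factors, which are released from the retinoblastoma family when cells enter the cycle. Replication genes are thus commonly read as a sign of how many cells of a culture are cycling.

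Replication genes fell at every step of the process after IFN-gamma. Of the 45 genes 37 fell, 1 rose and 7 were not called. Among all tested genes 20.9% fell and 23.4% rose, and 9.69% rose at least 2-fold, which none of the 45 did. Among tested genes of at least 5 FPKM 28% fell and 29.1% rose. The median log2 ratio of the 45 genes was -0.92, against 0.04 for all tested genes, so that the median gene stood at 52.9% of its untreated level. In 19 genes the fall was at least 2-fold, a change that 8.88% of all tested genes showed in that direction. The untreated levels ran from 3.48 FPKM (Fen1) to 389 FPKM (Rpa3), and 44 of the 45 lay above the median of tested genes. In RNA from whole cultures, fewer cells in S phase and less RNA of these genes per cell cannot be told apart.

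**Figure D1:**
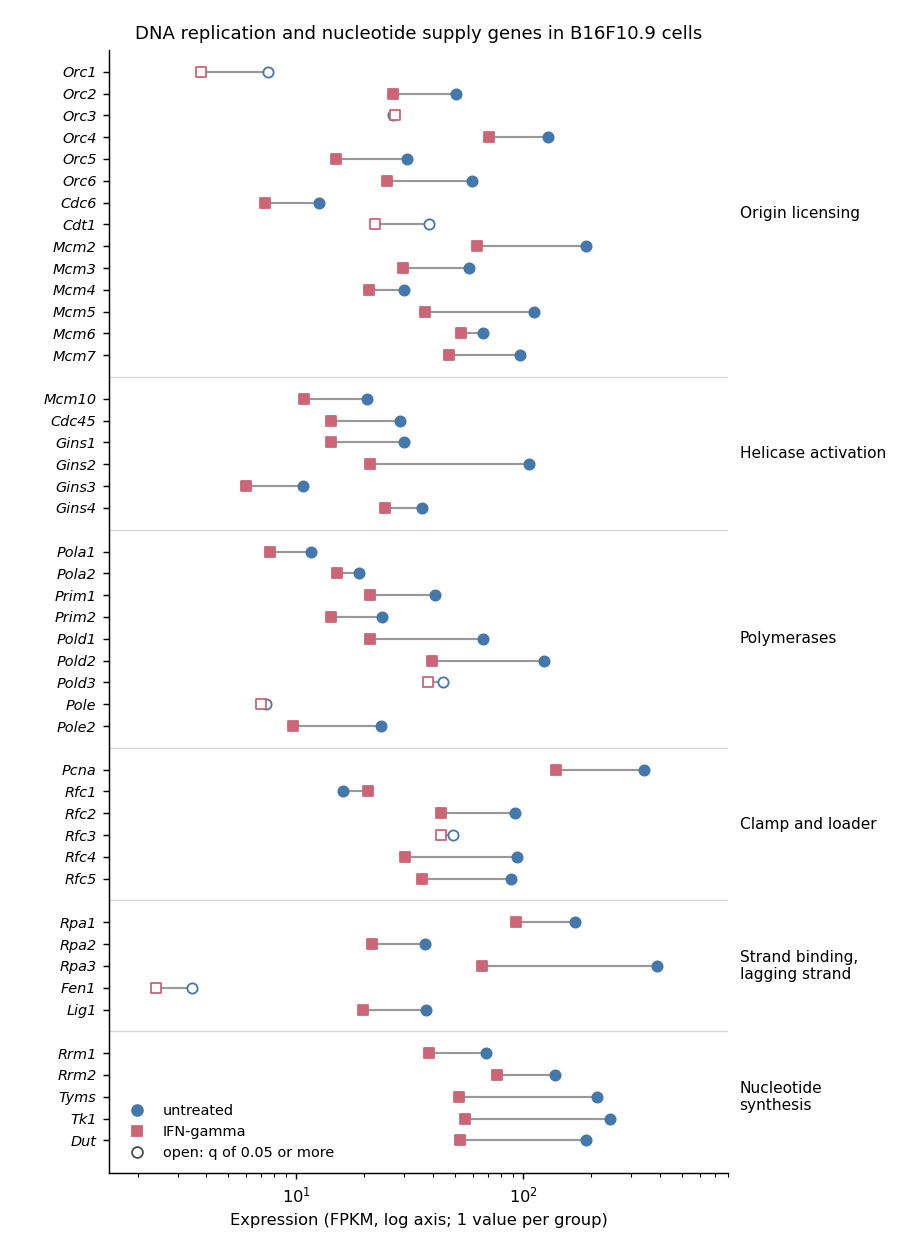
Level of each of the 45 genes in FPKM (log axis) in untreated cells (circles) and after IFN-gamma (squares), 1 value per group, ordered by step; open symbols mark a q-value of 0.05 or more. The square lies left of the circle for all but 2 genes, Orc3 (26.7 and 27.3 FPKM) and Rfc1 (16.2 and 20.7 FPKM).

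The promoters of these genes are shown because many of the genes are known targets of E2F. RefSeq promoters (GRCm38.p6, 250 bases before to 50 bases after a transcript start) were held for 38 of the 45 genes by symbol. E2F letters were searched as TTTGGCGC, TTTCCCGC, TTTCGCGC or TTTGCCGC on both strands. They were found in 15 of the 38 genes (39.5%), against 2.6% of all 27025 genes with a listed promoter and 5.13% of the 7013 tested genes of at least 5 FPKM. Over promoters with a GC content above 60%, the shares were 33.3% of 21 replication genes and 5.43% of 4251 expressed genes. Among expressed genes that fell, 6.24% held the letters. The windows below hold the 9 genes whose first match lies upstream of the transcript start, each read 5′ to 3′ along the gene's own strand, with the E2F letters in capitals. They are matches of letters and not shown to be sites.
Mcm5 (chr8:75109340-75109379, plus strand): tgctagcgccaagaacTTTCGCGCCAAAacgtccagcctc
Mcm6 (chr1:128359792-128359831, minus strand): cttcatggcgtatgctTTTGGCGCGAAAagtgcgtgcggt
Mcm7 (chr5:138172025-138172064, minus strand): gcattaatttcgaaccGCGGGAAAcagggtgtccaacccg
Cdc6 (chr11:98907997-98908036, plus strand): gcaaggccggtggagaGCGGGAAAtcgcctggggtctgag
Orc1 (chr4:108579411-108579450, plus strand): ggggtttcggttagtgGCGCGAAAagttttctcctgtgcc
Gins3 (chr8:95633502-95633541, plus strand): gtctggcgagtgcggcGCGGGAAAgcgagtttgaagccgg
Pola1 (chrX:93632270-93632309, minus strand): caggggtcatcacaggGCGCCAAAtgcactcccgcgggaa
Orc3 (chr4:34614960-34614999, minus strand): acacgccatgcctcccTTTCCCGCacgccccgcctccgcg
Rfc3 (chr5:151651195-151651234, minus strand): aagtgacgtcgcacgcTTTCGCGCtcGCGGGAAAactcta

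In Mcm5 and Mcm6 a match on each strand overlaps to a run of 12 capitals, and in Rfc3 a pair of matches lies 2 bases apart. The first match begins between 165 and 10 bases before the start in these 9 genes. Cdt1, Mcm3, Pold1, Pold3, Pole2 and Lig1 held the letters only after the start. Genes with and without the letters overlapped in their changes. Of the 15 genes with them 10 fell and 5 were not called (median log2 ratio -0.83), and of the 23 without them 21 fell, 1 rose and 1 was not called (median log2 ratio -1.005). Of the windows above, those of Orc1, Orc3 and Rfc3 belong to genes that were not called. The CCAAT box, letters CCAAT on either strand, was found in 60.5% of the 38 genes and in 43.8% of expressed genes. The cell cycle homology region, letters TTTGAA on either strand, was found in 13.2% and 14%. In Mcm7 a CCAAT match beginning at base 24 after the start overlapped the end of an E2F match beginning at base 17. No other CCAAT or TTTGAA match overlapped an E2F match. The gene with the largest fall, Rpa3, held no E2F letters, and its upstream bases are given with 2 CCAAT boxes in reverse orientation in capitals.
Rpa3 (chr6:8259142-8259391, minus strand): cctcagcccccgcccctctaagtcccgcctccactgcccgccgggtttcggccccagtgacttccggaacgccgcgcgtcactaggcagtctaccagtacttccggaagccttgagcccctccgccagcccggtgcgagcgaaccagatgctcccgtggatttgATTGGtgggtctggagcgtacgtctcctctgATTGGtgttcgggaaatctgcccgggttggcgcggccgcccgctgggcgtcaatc

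**Figure D2:**
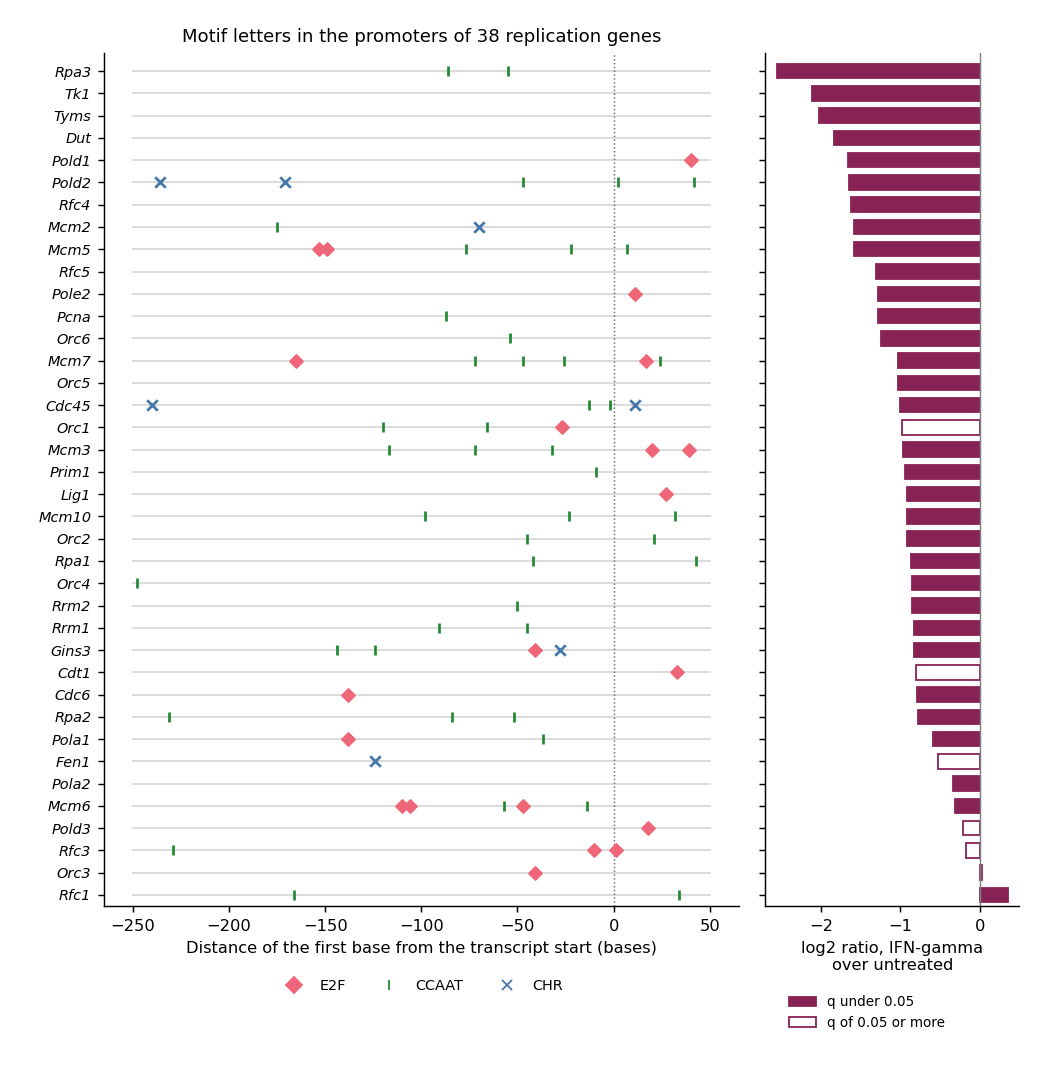
First base of each E2F, CCAAT and TTTGAA (CHR) match in the promoters of 38 replication genes by distance from the transcript start in bases (left), beside the log2 ratio of IFN-gamma over untreated (right, open bars for a q-value of 0.05 or more); genes with more than 1 listed start are overlaid. The E2F matches are scattered from Pold1 near the top of the order to Orc3 near its foot, and Rpa3, Tk1, Tyms and Dut, the largest falls among the genes plotted, hold none.

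Of the 14 genes of origin licensing, 11 fell and 3 were not called, with a median log2 ratio of -0.94. ORC marks the places where replication can start. Its largest falls were those of Orc6, the smallest subunit, from 59.4 to 25.1 FPKM, and Orc5, from 30.8 to 15.03 FPKM. Orc4 had the highest level of the complex and fell from 129 to 71.1 FPKM, and Orc2 stood at 50.5 FPKM before and 26.8 FPKM after, also a fall. Of the exonic bases of Orc2, 29.8% overlap the opposite-strand gene Nif3l1, listed at 39.6 and 29.2 FPKM. Orc3, a core subunit, stood at 26.7 and 27.3 FPKM (q = 0.894 in the authors' deposited table). Orc1, the subunit with cell cycle-regulated abundance, stood at 7.48 and 3.79 FPKM, a log2 ratio of -0.98 that was not called (q = 0.183 in the authors' deposited table). Orc1 had the lowest level of the complex in both groups, 17.3-fold below Orc4 in untreated cells and 18.8-fold below it after IFN-gamma.

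Cdc6, the ATPase that joins ORC to load the helicase, fell from 12.7 to 7.29 FPKM. Cdt1, which carries the Mcm2-7 ring to the origin, stood at 38.7 and 22.2 FPKM. Its log2 ratio of -0.80 was close to that of Cdc6 (-0.79), yet the authors' deposited table gave it a q-value of 0.838. The locus of Cdt1 is described with that of Gins2 below.

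All 6 genes of the Mcm2-7 ring fell, from 3.01-fold for Mcm2 to 1.24-fold for Mcm6. Mcm2 fell from 189 to 62.6 FPKM and Mcm5 from 111 to 37.1 FPKM, to 33.2% and 33.4% of the untreated level. Mcm7 fell from 96.9 to 47.3 FPKM and Mcm3 from 57.7 to 29.5 FPKM, to 48.8% and 51.1%. The smallest falls were those of Mcm4, from 29.9 to 20.99 FPKM, and Mcm6, from 66.5 to 53.4 FPKM (q = 0.0232 in the authors' deposited table). The ring holds 1 copy of each subunit. In untreated cells the highest of the 6 transcripts exceeded the lowest 6.3-fold, and after IFN-gamma 2.98-fold, and the order of levels changed, with Mcm6 passing Mcm5 and Mcm7.

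The 6 genes that turn the loaded ring into a moving helicase all fell, with a median log2 ratio of -0.96. Cdc45, the helicase cofactor, fell from 28.7 to 14.3 FPKM, and Mcm10, which acts at the activation of the origin, from 20.5 to 10.8 FPKM. The 4 GINS subunits form one complex but differed in level and in change. Gins1 fell from 30.01 to 14.2 FPKM, Gins3 from 10.7 to 6.02 FPKM and Gins4 from 35.8 to 24.6 FPKM. With the length trend subtracted, the log2 ratio of Gins1 went from -1.07 to -0.58 and that of Gins4 from -0.54 to -0.24. Gins2 stood highest of the 4 untreated and fell from 106 to 21.1 FPKM, to 19.9% of its untreated level. That fall is the least well supported of the 37, with a q-value of 0.0475 in the authors' deposited table.

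Of the 9 polymerase genes 7 fell and 2 were not called. Their median log2 ratio of -0.75 was the nearest to 0 of the steps, although with the length trend subtracted it was -0.92 and that of helicase activation -0.75. Polymerase alpha and its primase start each new strand. The primase subunit gene Prim1 fell from 40.7 to 21.1 FPKM. Prim2, its partner, fell from 23.9 to 14.2 FPKM. Pola1, the catalytic subunit, fell from 11.6 to 7.70 FPKM, and Pola2 from 19.0 to 15.1 FPKM, the latter to 79.5% of its untreated level. The log2 ratio of Pola1 went from -0.59 to -0.94 with the length trend subtracted. Polymerase delta, which copies the lagging strand, was divided. Its catalytic subunit gene Pold1 fell from 66.4 to 21.1 FPKM and Pold2 from 124 to 39.6 FPKM, both to about the same share (31.7% and 32%), while Pold3 stood at 44.2 and 38.2 FPKM (q = 0.830 in the authors' deposited table). Polymerase epsilon, of the leading strand, was divided too. Pole2 fell from 23.6 to 9.67 FPKM, and the catalytic subunit gene Pole stood at 7.34 and 6.98 FPKM (q = 0.796 in the authors' deposited table). These 2 genes lay closer with the length trend subtracted. The log2 ratio of Pole2 went from -1.29 to -0.99 and that of Pole from -0.07 to -0.60. Whether subunits of one polymerase differ from each other in their change was not tested, since the table holds 1 value per group.

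Pcna, the clamp that tethers polymerases to DNA and a common marker of S phase, fell from 339.8 to 139.8 FPKM. The clamp loader Rfc places it there, and the 5 loader genes split. Rfc4 fell from 93.6 to 30.3 FPKM, Rfc5 from 88.7 to 35.8 FPKM and Rfc2 from 91.9 to 43.5 FPKM. These genes had similar untreated levels. Rfc3 stood at 49.0 and 43.5 FPKM (q = 0.401 in the authors' deposited table). Rfc1, the large subunit, was the single gene of the 45 to rise, from 16.2 to 20.7 FPKM (q = 0.0143 in the authors' deposited table), a 1.28-fold change. With the trend of transcript length subtracted, as described below, its log2 ratio went from 0.35 to 0.08.

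Among genes that coat single-stranded DNA or finish the lagging strand, 4 of 5 fell. Of the replication protein A genes, Rpa1 fell from 170.2 to 93.5 FPKM. Rpa2 fell from 37.1 to 21.6 FPKM. Rpa3, the smallest subunit of the trimer, fell from 389 to 65.9 FPKM, to 16.97% of its untreated level, the largest fall among the 45 genes. Its longest annotated transcript, of 682 nt, was also the shortest of the 45. With the length trend subtracted its log2 ratio went from -2.56 to -2.05, and Gins2 (-2.49) and Tyms (-2.19) then stood lower. Lig1, the ligase that joins Okazaki fragments, fell from 37.2 to 19.7 FPKM. The flap nuclease gene Fen1 was listed at 3.48 and 2.42 FPKM (q = 0.504 in the authors' deposited table), the lowest level of all 45 genes. Of the exonic bases of Fen1, 78.8% overlap the opposite-strand gene Gm10143, which was listed at 31.7 and 19.96 FPKM and was called lower. Because the kit leaves strand unmarked, fragments of Fen1 and Gm10143 cannot be told apart.

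The enzymes of nucleotide supply had the lowest median of the steps, a log2 ratio of -1.84, and all 5 fell. Tyms, which makes thymidylate, fell from 212 to 51.9 FPKM. Tk1, the S phase thymidine kinase, fell from 241 to 55.3 FPKM, and Dut, which breaks down dUTP and so keeps uracil out of DNA, from 189 to 52.9 FPKM. These genes of the thymidylate branch ended at 23.0% to 28.0% of their untreated levels. Ribonucleotide reductase fell less. Rrm1, the large subunit, fell from 68.8 to 38.6 FPKM. Rrm2, the small subunit, fell from 138 to 76.6 FPKM, and the ratio of Rrm2 to Rrm1 was 2.01 untreated and 1.99 after IFN-gamma. Their log2 ratios of -0.83 and -0.85 differed by 0.02, the narrowest span of any complex examined, here over only 2 genes. With the length trend subtracted, the log2 ratios were further apart, at -0.99 for Rrm1 and -0.65 for Rrm2.

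**Figure D3:**
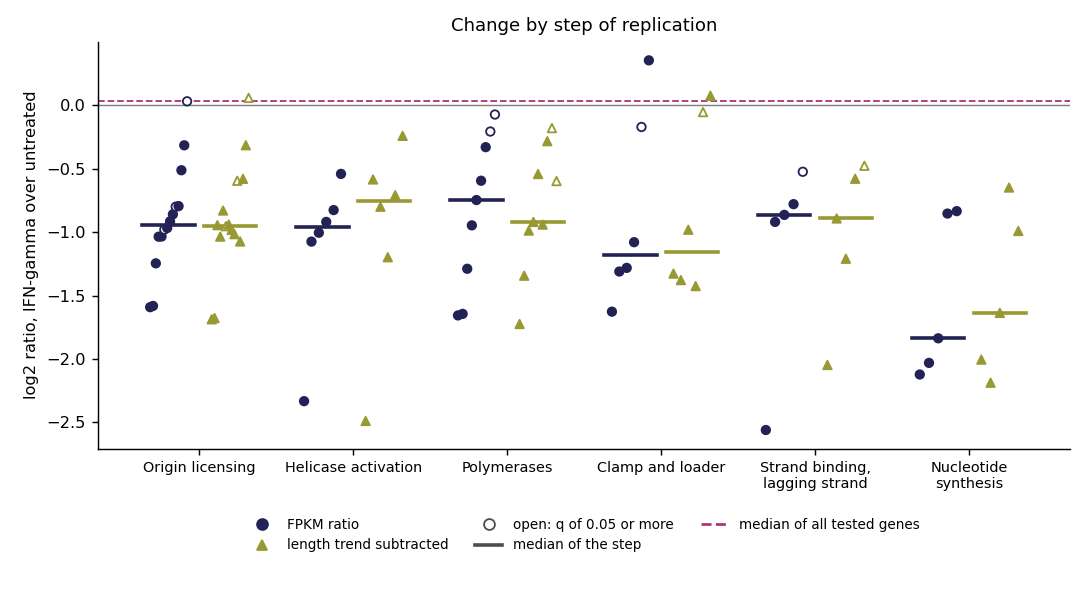
Log2 ratio of IFN-gamma over untreated for the 45 genes by step, from FPKM (circles) and with the trend of transcript length subtracted (triangles); horizontal bars are step medians, open symbols mark a q-value of 0.05 or more, and the dashed line is the median of all tested genes (0.04). All step medians lie below the dashed line, from -0.75 for polymerases to -1.84 for nucleotide synthesis.

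The summed level of the 45 genes was 3663 FPKM in untreated cells and 1506 FPKM after IFN-gamma, 41.1% of the untreated sum. Genes with higher untreated levels had the lower log2 ratios (Spearman rho = -0.65 across the 45 genes, against -0.37 across 12354 tested genes of at least 1 FPKM). The genes are from the same libraries, and the untreated level enters both measures. With the mean of both groups in its place rho was -0.58 and -0.16. As a description of the subunits, the span of levels within a complex was narrower after IFN-gamma for Mcm2-7, GINS (9.96-fold to 4.09-fold), Rfc (5.79-fold to 2.11-fold) and Rpa (10.5-fold to 4.33-fold), and not for ORC. The untreated spans of GINS and Rpa were set by Gins2 and Rpa3, the genes with the largest fall in each. Among Gins1, Gins3 and Gins4 alone the span was not narrower after IFN-gamma.

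Log2 ratios in this table rose with transcript length, with a Spearman rho of 0.35 across 12354 tested genes of at least 1 FPKM. Among the 45 replication genes rho was 0.23. The 15 shortest, of 682 to 2193 nt, had a median log2 ratio of -1.07, and the 15 longest, of 3496 to 7163 nt, one of -0.86. The trend of all tested genes, read at the lengths of these genes, had medians of -0.30 and 0.16. Of the 15 longest 13 fell, and of the 15 shortest 14. With the trend subtracted the medians were -0.83 and -1.07, and that of all 45 genes was -0.95. The largest shift was that of Pole, the longest transcript at 7163 nt, from -0.07 to -0.60. With the trend of level subtracted as well, called falls that came nearer to 0 by over 1.5 times were those of Gins1 (-0.62), Gins4 (-0.06), Orc6 (-0.80), Mcm6 (-0.14), Pola2 (-0.11), Pcna (-0.70), Rpa2 (-0.33) and Rrm2 (-0.40), each given as the log2 ratio then left. The origin of the length trend was not tested.

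**Figure D4:**
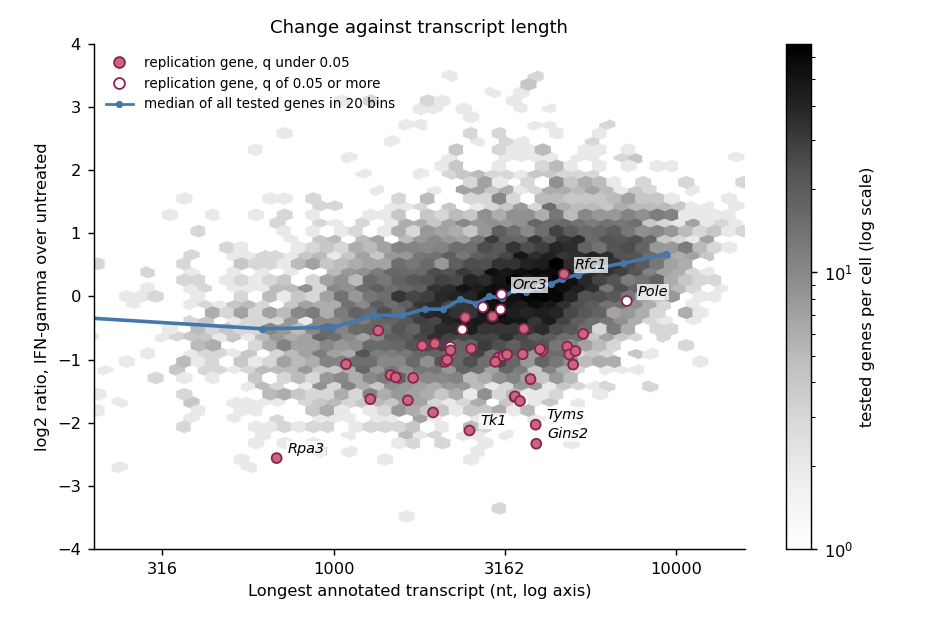
Log2 ratio of IFN-gamma over untreated against the longest annotated transcript in nt (log axis) for 12354 tested genes of at least 1 FPKM (grey cells, within 4 log2 units of 0) and the 45 replication genes (circles, open for a q-value of 0.05 or more). The line joins medians in 20 length bins, and 43 of the 45 circles fall below the trend at their length.

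The missing calls were compared with the authors' test score, separately for genes listed with a locus of their own and for genes listed with a locus they share. For the 29 genes alone in their locus, the log2 change per unit of the authors' test score had a median of 0.22, against 0.28 for tested genes alone in a locus. For the 16 that share a locus the median was 0.42, against 0.55. Cdt1 and Gins2 lie in one merged locus of 4435366 bases with 182 genes beside each, and there a unit of test score stood for 2.83 and 5.5 log2 units. What the merged locus adds to these scores was not tested. Orc1 (1.27) and Fen1 (0.944) also share loci with genes that overlap their exons. So do called genes, among them Orc2 (0.369), Rfc4 (0.71) and Rfc5 (0.671). The gene that overlaps Orc1, Gm12743, was listed at 0.431 and 0.234 FPKM. Pold3 had a value of 1.13 with no other gene in its locus. Orc3 (0.265) and Rfc3 (0.275), both alone in their locus, lay within the quartiles of all genes alone in a locus (0.223 to 0.537) and had log2 ratios of 0.03 and -0.17. Pole, in a shared locus, had a value of 0.338, below the median of such genes, and a log2 ratio of -0.07. Of the 29 genes alone in their locus 25 fell, 1 rose and 3 were not called, where 26.8% of all tested genes alone in a locus fell and 26.9% rose.

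**Figure D5:**
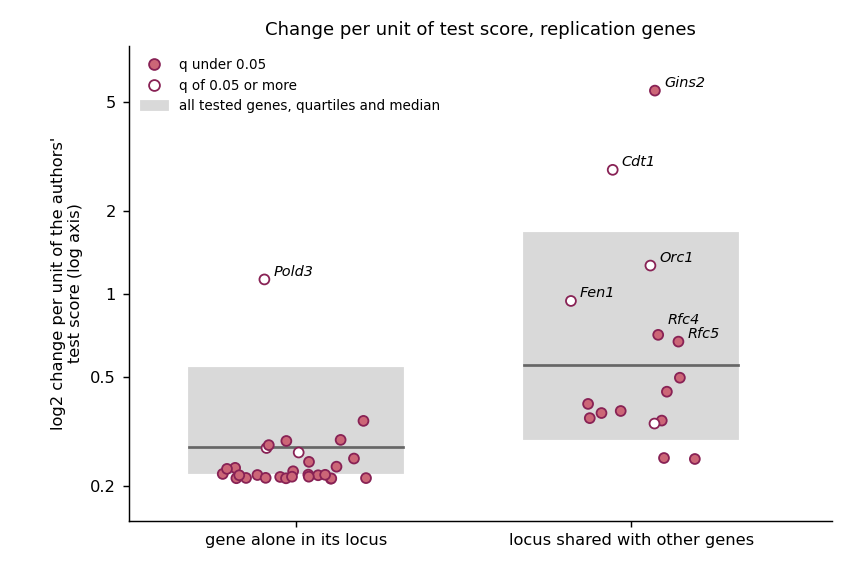
Log2 change per unit of the authors' test score (log axis) for replication genes alone in their locus (left) and in a shared locus (right); open circles have a q-value of 0.05 or more, and grey boxes give the quartiles and median of all tested genes. Gins2 (5.5) and Cdt1 (2.83) stand above the upper quartile of shared loci, and Pold3 (1.13) above that of genes alone in theirs.

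Other genes of the pathway were counted from a wider list. Of 88 such genes, all tested, 51 fell (58.0%), 6 rose (6.82%) and 31 were not called, with a median log2 ratio of -0.50. The shares over all tested genes were 20.9% lower and 23.4% higher, and they apply to the groups below as well. Of 14 genes of initiation and origin firing 9 fell and 0 rose, among them Recql4, a helicase of origin firing, from 6.49 to 2.06 FPKM. The licensing inhibitor gene Gmnn (geminin) fell from 49.6 to 20.1 FPKM (log2 ratio -1.30, or -0.81 with the length trend subtracted), and Mcm8, a relative of the Mcm2-7 genes, from 13.3 to 5.82 FPKM. Of 10 genes that act on chromatin behind the fork 9 fell and 1 was not called. Among them the histone chaperone gene Chaf1b fell from 64.2 to 19.0 FPKM. Asf1b, also a histone chaperone gene, fell from 71.3 to 22.9 FPKM, and Cdca7, a partner of the remodeller Hells, from 28.3 to 9.17 FPKM.

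Of 19 genes of the fork and its checkpoint 10 fell, 2 rose and 7 were not called. Rnaseh2c, a subunit of the enzyme that removes ribonucleotides from DNA, fell from 327 to 69.4 FPKM, Chtf18, of an alternative clamp loader, from 18.4 to 7.07 FPKM, and the nuclease gene Dna2 from 9.77 to 4.04 FPKM. The rises were those of the topoisomerase gene Top1, from 19.1 to 24.9 FPKM, and Pold4, the smallest polymerase delta subunit, from 14.98 to 27.4 FPKM. Pold4 thus moved against Pold1 and Pold2, and its log2 ratio was 0.87, or 1.36 with the length trend subtracted. That of Top1 went from 0.38 to 0.23.

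Of 32 further genes of nucleotide supply 17 fell, 2 rose and 13 were not called. Their median log2 ratio was -0.39, against -1.84 for the 5 enzymes among the 45 genes. In the other groups of the wider list it was -0.62 (initiation), -0.55 (fork), -0.99 (chromatin) and -0.37 (regulators). Dctpp1, which hydrolyses dCTP and its analogues, fell from 177 to 26.9 FPKM. Its log2 ratio was -2.72, or -2.20 with the length trend subtracted. Dtymk, the thymidylate kinase that acts on the product of Tyms and Tk1, fell from 226 to 47.0 FPKM. Dtymk, like the purine synthesis genes below, was chosen with its values known. Against these, Samhd1, which breaks deoxynucleotides down, rose 17.1-fold from 14.9 to 254 FPKM. Cmpk2, a mitochondrial nucleotide kinase known as an interferon-inducible gene, rose 12.6-fold from 4.66 to 58.7 FPKM. Of the purine synthesis genes, Gart fell from 66.8 to 52.6 FPKM, and Atic, at 50.5 and 45.3 FPKM, was not called. Adsl, Impdh2 and Pfas fell too, with log2 ratios of -0.69, -0.68 and -0.48, against -0.34 for Gart. Ppat, Paics, Impdh1 and Gmps were not called.

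Of 13 regulators of the E2F and retinoblastoma families 6 fell (46.2%), 2 rose (15.4%, below the 23.4% of all tested genes) and 5 were not called. Tfdp1, the dimer partner of E2F proteins, fell from 134 to 51.2 FPKM, E2f2, an activator, from 5.77 to 2.58 FPKM, and E2f5 from 10.5 to 4.91 FPKM. E2f1, also chosen with its values known, fell from 27.8 to 14.7 FPKM. The rises were those of Rbl2, a retinoblastoma relative that represses E2F targets in resting cells, from 20.5 to 28.2 FPKM, and Tfdp2, from 4.81 to 6.98 FPKM. With the length trend subtracted, the log2 ratio of Rbl2 went from 0.46 to 0.11 and that of Tfdp2 from 0.54 to 0.01. Rb1, chosen likewise, stood at 10.6 and 18.5 FPKM without a call.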

How the data were processed

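Per the submitters' processing notes, the tools were Cufflinks 2.2.1 with Cuffdiff and TopHat2 2.0.11, on GRCm38. Settings and gene models are not stated there. The authors' deposited table holds FPKM for each group, a log2 ratio (recomputed here from FPKM), a test score, a p-value and a q-value. Shorter sheets of 6953 genes hold the same values and a linear fold by the authors. The planned fits on values per library were replaced by the authors' q-value, since the table holds 1 value per group. Low values were searched for steps of single reads, and 25.1% of 287 lay within 0.1 of a whole multiple, so reads were not recovered.

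Calls used q under 0.05 over all tested genes. Transcript length was that of the longest listed transcript in GENCODE M21 (98.9% of tested genes); its trend was the median log2 ratio in 20 length bins of tested genes of at least 1 FPKM. A locus is that of the authors' table. All 45 genes are named. Of the wider list, up to 3 called genes with the largest change per group and those against its direction are named. The members and lists were chosen with earlier results of these data known. The trend fit was tested on simulated data. Python 3.11.15, pandas 2.3.3, scipy 1.17.1 and matplotlib 3.10.9 were used.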

Additional observations from a re-analysis of the deposited data

How the results depend on the processing

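No paired analysis was possible because the table holds 1 value per group, and for the same reason leaving out each library and count tests without a filter on low counts were not run. The count of 37 lower and 1 higher was 33 and 0 at q under 0.01 (17.2% lower and 19.5% higher among all tested genes), and 19 and 0 with a change of at least 2-fold. It was the same with the authors' p-values readjusted over genes of at least 1 or 5 FPKM. In the wider list, 51 lower and 6 higher became 23 and 2 with a change of at least 2-fold (8.88% lower and 9.69% higher among all tested genes). The median of the 45 genes lay between -0.97 and -0.86 under every scaling and pseudocount. With the length trend subtracted, step medians were -0.75 for helicase activation, -0.92 for polymerases and -1.64 for nucleotide synthesis. With length and level subtracted together, a setting chosen after seeing the data, they were -0.82, -0.86 and -1.44, with -0.83 for origin licensing and -0.91 for clamp and loader. No called gene of the 45 changed sign under these scalings or under pseudocounts of 0.1 and 1. Over genes alone in their locus, also chosen after seeing the data, 25 fell and 1 rose. The lack of values per library is the main limit: differences between subunits could not be tested.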
